A study of Mus musculus with 6 samples.

Results

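The genes described here encode drug-metabolizing cytochrome P450 enzymes of the liver together with NADPH-cytochrome P450 oxidoreductase (Por) and 5'-aminolevulinate synthase (Alas1). The members are a list of 10 Ensembl identifiers named for the function of their genes. The list was made with earlier results of these data known, so it is not independent of them. Of the 10, 9 are listed among the 8941 genes of the deposited tables. Cyp2b10 (ENSMUSG00000030483) is not listed in the tables and has no value here. The 9 genes are 7 P450s, Cyp3a11 (ENSMUSG00000056035), Cyp2e1 (ENSMUSG00000025479), Cyp1a2 (ENSMUSG00000032310), Cyp2c29 (ENSMUSG00000003053), Cyp2f2 (ENSMUSG00000052974), Cyp2a5 (ENSMUSG00000005547) and Cyp2c70 (ENSMUSG00000060613), and the partners Alas1 (ENSMUSG00000032786) and Por (ENSMUSG00000005514). The tables carry identifiers only, so these symbols come from the list and could not be checked against an annotation.

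Disome footprints are messenger RNA fragments shielded from nuclease by a pair of stacked ribosomes, and they were sequenced from whole mouse liver. All animals were males of the inbred strain C57BL/6JRj, aged 11 to 12 weeks, entrained for 2 weeks to 12 h of light and 12 h of dark. Livers were taken at zeitgeber time (ZT, hours since lights on) 0, at ZT2, and at ZT12 when the lights go off, with 2 libraries at each time. The labels say that lysates of 2 mice were pooled per time, and not whether the libraries of a time came from separate pools. The SDs, SEs, intervals and p-values below may therefore measure technical spread only. Recovered reads ranged from 6346387 to 12322651 per library, and n counts libraries. The ZT12 libraries were the deepest, with 12322651 and 11904184 reads, and the ZT0 and ZT2 libraries held at most 7845062. Depth therefore went with time. Values are RPKM, reads divided by the length of the gene model and by a scaling constant of the library, and all 9 genes passed the filter of a mean of at least 1 RPKM. Because identifiers of other genes could not be named, neither hepatocyte markers nor markers of other liver cells were checked. In whole liver, fewer cells of a type and less RNA per cell cannot be told apart, and disome RPKM was not separated into transcript amount, translation and stalling.

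Microsomal P450s are heme enzymes anchored in the endoplasmic reticulum that oxidize drugs, toxins, steroids and fatty acids. They receive their electrons from Por, a flavoprotein in the same membrane. Alas1 makes aminolevulinate in mitochondria, the rate-limiting step of heme synthesis in hepatocytes, and P450s are the main users of that heme. In rodent liver, Alas1, Por and several P450s are known outputs of the circadian clock, acting partly through the PAR bZIP transcription factors Dbp, Tef and Hlf.

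All 9 genes lay in the upper part of the disome distribution. Their mean over the 6 libraries ranged from 229 RPKM for Por, ranked 528th, to 5134 RPKM for Cyp3a11, ranked 27th of 8941 listed genes. These ranks correspond to the 94.09th and 99.70th percentile of all genes. The order of means was Cyp3a11, Cyp2e1, Cyp1a2, Cyp2c29, Cyp2f2, Cyp2a5, Alas1, Cyp2c70 and Por. Levels of neighbours in this order overlapped over the 6 libraries in 7 of 8 steps. The exception was the step from Cyp2e1 to Cyp1a2, which was 3.55-fold, with no overlap. Cyp3a11, which oxidizes many drugs and steroids, and Cyp2e1, which oxidizes ethanol and acetaminophen, therefore stood apart from the other 7 genes on this per-length scale. Together the 9 genes held 2.34% ± 0.52 (SD, n = 6) of recovered reads, with 1641 to 127602 reads per gene and library.

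**Figure D1:**
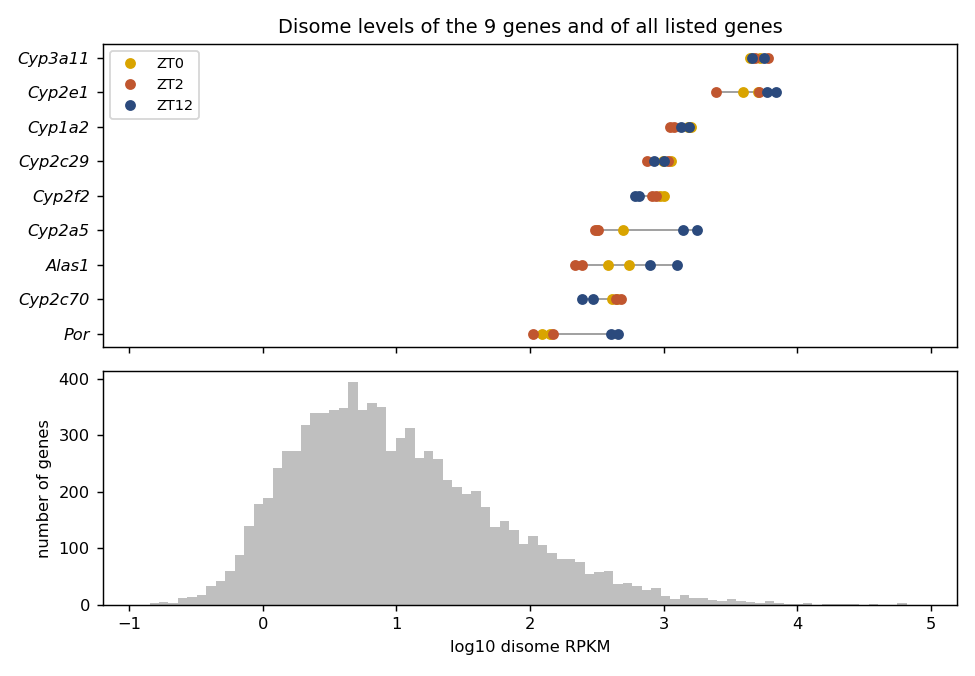
The upper panel plots log10 disome RPKM of each gene in the 6 libraries, with points coloured by time and a line from the lowest to the highest library. The lower panel is the histogram of the 6-library mean of all listed genes, and the 9 genes lie in its right tail, with Cyp2a5, Alas1 and Por spread widest.

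Cyp2a5 and Por were higher at ZT12 than at either earlier time. Alas1 was higher at ZT12 than at ZT2 and did not pass against ZT0, and the other 6 genes did not pass in any comparison. The test was limma on log2(RPKM + 1) with Benjamini-Hochberg adjustment over 8355 genes and a threshold of 0.05. For ZT12 against ZT0 it called 2 of 9 genes, both higher, against 0.946% of all genes tested. For ZT12 against ZT2 it called 3 of 9, all higher, against 2.06% of all genes tested. For ZT2 against ZT0 limma called 0 of 9, against 0.0239% of all genes, and voom on recovered reads called 0 as well. At an unadjusted p under 0.05 there were 2 of 9 genes for ZT2 against ZT0, 5 of 9 when ZT12 was set against ZT0 and 6 of 9 when it was set against ZT2, while 13.7%, 14.5% and 19.2% of all tested genes lay there. The shares of all genes called depend on single libraries: without ZT2 replicate 1, for example, 597 genes were called for ZT12 against ZT2, and without ZT12 replicate 2 only 5 were, beside 172 with all libraries. The moderated F test over the 3 times called the same 3 genes as ZT12 against ZT2, against 1.26% of all genes. The median log2 change of the 9 genes was 0.08 for ZT12 against ZT0, with -0.01 over all tested genes. It was 0.31 for ZT12 against ZT2, with 0.03 over all tested genes, and -0.24 for ZT2 against ZT0, with -0.04 over all tested genes and 7 of 9 genes below 0.

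**Figure D2:**
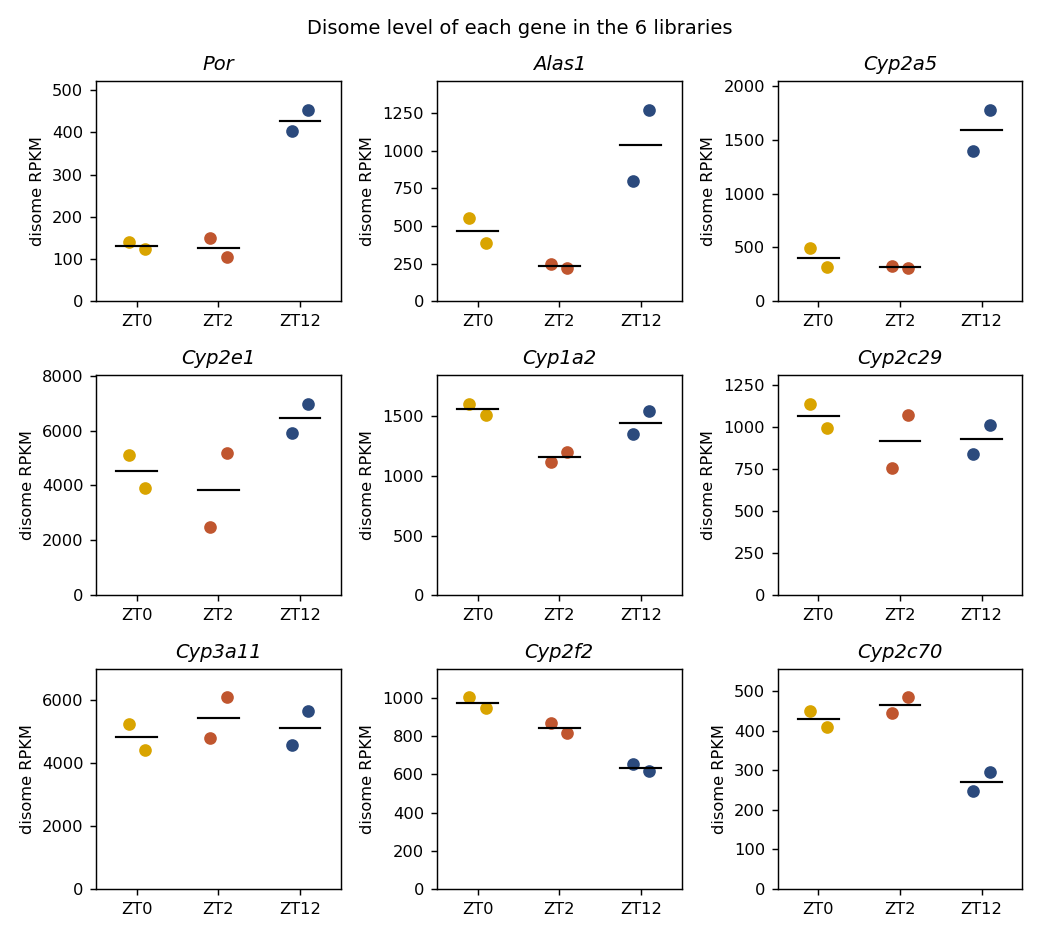
Each panel shows disome RPKM of 1 gene at ZT0, ZT2 and ZT12, from 0 on a linear axis, with a point per library and a bar at the mean of the 2 libraries. Por, Alas1, Cyp2a5 and Cyp2e1 are highest in both ZT12 libraries, Cyp2f2 and Cyp2c70 are lowest there, and Cyp3a11 and Cyp2c29 overlap at all times.

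Por is the flavoprotein that passes electrons from NADPH to every microsomal P450. It measured 140.1 and 123 RPKM in the ZT0 libraries, 149 and 105 RPKM in the ZT2 libraries, and 402 and 453 RPKM in the ZT12 libraries. Both ZT12 libraries lay far above the other 4, and the ZT0 libraries lay within the range of the ZT2 libraries. Mean Por was 428 RPKM ± 36.2 at ZT12 and 131 RPKM ± 12.3 at ZT0 (SD, n = 2 each), a 3.26-fold ratio. The log2 change for ZT12 against ZT0 was 1.70 ± 0.21 (SE), at a limma adjusted p of 0.020. Set against ZT2, the log2 change was 1.77 ± 0.21 (SE) and passed at a limma adjusted p of 0.013. The call against ZT0 was lost without any 1 of the ZT0 or ZT12 libraries, at a limma adjusted p of 0.103 to 0.226, and without the variance trend, at 0.065. The call against ZT2 was lost without ZT12 replicate 1 (limma adjusted p 0.066) or ZT12 replicate 2 (0.145).

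Alas1 controls how much heme hepatocytes make. It measured 549 and 387 RPKM in the ZT0 libraries, 245 and 218 RPKM in the ZT2 libraries, and 797 and 1270.1 RPKM in the ZT12 libraries. The 3 times did not overlap, with ZT2 lowest and ZT12 highest. The log2 change for ZT12 against ZT2 was 2.12 ± 0.27 (SE), at a limma adjusted p of 0.016, from means of 1033 RPKM ± 335 at ZT12 and 231 RPKM ± 19.0 at ZT2 (SD, n = 2 each). Against ZT0 the change was 1.12 ± 0.27 (SE) with a 95% interval of 0.50 to 1.75, and it did not pass, at a limma adjusted p of 0.12. For ZT2 against ZT0 the change was -0.99 ± 0.27 (SE), also not past the threshold, at a limma adjusted p of 0.21. The call against ZT2 was lost without ZT12 replicate 2, at a limma adjusted p of 0.124 and a log2 change of 1.78. With voom on recovered reads the change against ZT0 passed as well, at a limma adjusted p of 0.018.

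Cyp2a5 hydroxylates coumarin and nicotine in mouse liver and also acts on bilirubin. It measured 493 and 319 RPKM in the ZT0 libraries, 325 and 306 RPKM in the ZT2 libraries, and 1397 and 1778 RPKM in the ZT12 libraries. Both ZT12 libraries lay far above the other 4, of which ZT0 replicate 1 was the highest. Mean Cyp2a5 was 1588 RPKM ± 270 at ZT12 and 406 RPKM ± 123 at ZT0 (SD, n = 2 each), a 3.91-fold ratio. The log2 change for ZT12 against ZT0 was 1.99 ± 0.24 (SE), at a limma adjusted p of 0.018. Set against ZT2, the log2 change was 2.32 ± 0.24 (SE) and passed at a limma adjusted p of 0.0098. The call against ZT0 was lost without any 1 of the ZT0 or ZT12 libraries, at a limma adjusted p of 0.057 to 0.194, and without the variance trend, at 0.057. The call against ZT2 was lost without ZT12 replicate 2, at 0.124. By mean, Cyp2a5 held position 3 of the 9 genes at ZT12, against position 8 at ZT0. Its ZT12 libraries overlapped those of Cyp1a2 (1349 and 1543 RPKM). Its ZT0 libraries overlapped those of Cyp2c70 and Alas1, so it is not separated from these neighbours in position. RefSeq lists 4 protein-coding Cyp2a genes on chromosome 7, and how reads shared with near-identical copies were counted is not given in the sources used here, so the value of Cyp2a5 alone is uncertain.

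The promoters of Cyp2a5, Por and Alas1 are shown because these 3 genes passed the threshold for ZT12 against ZT2. For Alas1 the first of its 2 annotated starts is shown. The sequences are the 250 bases before the annotated start in RefSeq on GRCm38.p6, and capitals mark matches to any of the motifs searched. Cyp2a5 lies on the plus strand at chr7:26835089-26835338, Por on the plus strand at chr5:135688895-135689144, and Alas1 on the minus strand at chr9:106247955-106248204.
Cyp2a5: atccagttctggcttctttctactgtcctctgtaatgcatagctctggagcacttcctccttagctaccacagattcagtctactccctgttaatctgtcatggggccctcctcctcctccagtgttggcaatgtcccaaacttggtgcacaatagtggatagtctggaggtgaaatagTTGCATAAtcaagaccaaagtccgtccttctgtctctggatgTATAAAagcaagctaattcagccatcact
Por: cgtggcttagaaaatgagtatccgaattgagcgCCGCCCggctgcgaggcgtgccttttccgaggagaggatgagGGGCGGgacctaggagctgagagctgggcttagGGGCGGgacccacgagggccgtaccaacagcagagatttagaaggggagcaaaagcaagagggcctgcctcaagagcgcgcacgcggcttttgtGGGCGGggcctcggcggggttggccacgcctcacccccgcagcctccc
Alas1: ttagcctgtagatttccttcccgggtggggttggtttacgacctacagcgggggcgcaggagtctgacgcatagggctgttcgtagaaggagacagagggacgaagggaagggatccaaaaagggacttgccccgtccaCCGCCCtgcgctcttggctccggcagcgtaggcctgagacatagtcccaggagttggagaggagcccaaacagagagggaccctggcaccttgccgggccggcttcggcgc

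The motifs were the D-box cores TTATGTAA and TTACGTAA, bound by PAR bZIP factors, the D-box-like TTATGCAA, the E-box CACGTG, bound by the core clock activators, the GC box GGGCGG, the TATA box TATAAA and the nuclear receptor element AGGTCA. Both strands were searched, and no matches overlap in these 3 promoters. Table entries were found for 10 of 10 genes by symbol, as 11 entries because Alas1 has a second start. Neither D-box core nor the E-box was found in any of the 11, while 0.819%, 0.113% and 6.02% of all 32851 promoters hold them. The Cyp2a5 promoter holds TTATGCAA on the other strand at position -71, counted back from the start, and the Cyp2b10 promoter holds it at -58, against 0.694% of all promoters. The letters TATAAA lie at position -29 of Cyp2a5, as they do in Cyp1a2 and Cyp2c70, and at -31 of Cyp2e1. They lie at -19 of Cyp2c29 and, far from the start, at -234 of Cyp3a11, and 12.4% of all promoters hold them. The Por promoter has no TATA box and holds 4 GC boxes, against 32.7% of promoters with a GC box. Neither start of Alas1 has a TATA box, and the first start holds 1 GC box and the second 0. The GC content was 65.6% for Por, 62.4% and 74.4% for the first and second start of Alas1, and 46.4% for Cyp2a5, with a median of 52.4% over all promoters. Of the other members, Cyp3a11, Cyp2c29, Cyp2f2 and Cyp2c70 hold AGGTCA, as do 14.0% of all promoters. A match describes letters and was not tested as a binding site.

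**Figure D3:**
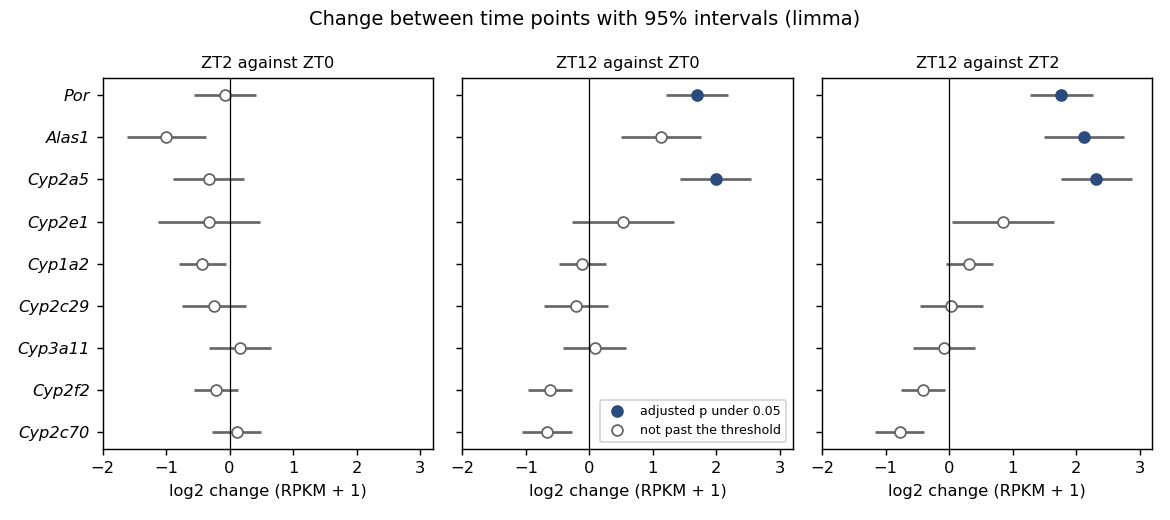
Points are limma log2 changes of RPKM + 1, later minus earlier time, for the 9 genes in 3 comparisons, and lines are 95% intervals. Filled points passed an adjusted p of 0.05, and these are Por and Cyp2a5 for ZT12 against ZT0, and Por, Alas1 and Cyp2a5 for ZT12 against ZT2.

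Cyp2f2 and Cyp2c70 had their lowest values in both ZT12 libraries, but neither passed the test. Cyp2f2, which activates naphthalene in mouse lung and is a periportal P450 in liver, measured 1003 and 948 RPKM in the ZT0 libraries, 871 and 815 RPKM in the ZT2 libraries, and 652 and 615 RPKM in the ZT12 libraries. The 3 times did not overlap. Its log2 change for ZT12 against ZT0 was -0.62 ± 0.15 (SE), with a 95% interval of -0.97 to -0.27 and a limma adjusted p of 0.12. Cyp2c70, which makes muricholic acids from chenodeoxycholic acid in mice, measured 449.7 and 409 RPKM in the ZT0 libraries, 444 and 484 RPKM in the ZT2 libraries, and 247 and 295 RPKM in the ZT12 libraries. The ZT0 and ZT2 libraries overlapped, and both ZT12 libraries lay below them. Its log2 change was -0.78 ± 0.17 (SE) for ZT12 against ZT2, with a 95% interval of -1.17 to -0.39 and a limma adjusted p of 0.066. Against ZT0 it was -0.67 ± 0.17 (SE), at a limma adjusted p of 0.14. With voom on recovered reads Cyp2f2 passed against ZT0 at a limma adjusted p of 0.049, and Cyp2c70 passed against ZT2 at 0.023.

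The 4 remaining P450s did not pass in any comparison of time points. Cyp2e1 measured 5121 and 3905 RPKM in the ZT0 libraries, 2472 and 5194 RPKM in the ZT2 libraries, and 5928 and 6988 RPKM in the ZT12 libraries. Its ZT12 libraries were above the other 4, and its ZT2 libraries differed 2.10-fold from each other. The log2 change for ZT12 against ZT2 was 0.85 ± 0.34 (SE), at a limma adjusted p of 0.24, and without ZT2 replicate 2 it was 1.38 and passed at a limma adjusted p of 0.030. Without ZT2 replicate 1 the same change was 0.31, at a limma adjusted p of 0.43. For ZT12 against ZT0 it was 0.53, with a 95% interval of -0.28 to 1.33 and a limma adjusted p of 0.54.

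Cyp1a2, which oxidizes caffeine and arylamines, measured 1607 and 1513 RPKM in the ZT0 libraries, 1121 and 1201 RPKM in the ZT2 libraries, and 1349 and 1543 RPKM in the ZT12 libraries. Its ZT2 libraries were the lowest, below ZT0 and ZT12 without overlap. The log2 change for ZT2 against ZT0 was -0.43, with a 95% interval of -0.79 to -0.06 and a limma adjusted p of 0.32. Cyp3a11 measured 5249 and 4410.3 RPKM in the ZT0 libraries, 4799 and 6097 RPKM in the ZT2 libraries, and 4574 and 5673 RPKM in the ZT12 libraries. All 3 times overlapped, and its log2 change for ZT12 against ZT0 was 0.08, with a 95% interval of -0.41 to 0.57. Cyp2c29, an enzyme of arachidonic acid and drug oxidation, measured 1140.2 and 992 RPKM in the ZT0 libraries, 756 and 1073 RPKM in the ZT2 libraries, and 841 and 1013 RPKM in the ZT12 libraries. Its times also overlapped, and its log2 change for ZT12 against ZT0 was -0.20, with a 95% interval of -0.71 to 0.30. These intervals do not show that the levels were equal. RefSeq lists 9 protein-coding Cyp3a genes and 15 Cyp2c genes, so the values of Cyp3a11, Cyp2c29 and Cyp2c70 carry the same uncertainty as that of Cyp2a5.

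Libraries of 2 times often did not overlap in this series, so the separation of single genes says little by itself. For ZT12 against ZT0, 6 of 9 genes did not overlap, 4 higher and 2 lower, against 54.4% of all genes tested. For ZT12 against ZT2, 7 of 9 did not overlap, 5 higher and 2 lower, against 45.9% of all genes. For ZT2 against ZT0, 3 of 9 did not overlap, all lower, against 46.4% of all genes. The comparisons of ZT12 share the ZT12 libraries and are not independent of each other.

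The P450s were also set against their partners on the per-length scale, as a description that holds the values of Por and Alas1 already given as its denominators. The summed level of the 7 P450s was 13780 RPKM ± 1815 at ZT0, 12978 RPKM ± 3099 at ZT2 and 16446 RPKM ± 2062 at ZT12 (SD, n = 2 each), and ZT2 replicate 2 lay above both ZT0 libraries and ZT12 replicate 1. The ratio of this sum to Por was 108 and 102 in the ZT0 libraries, 72.5 and 145 in the ZT2 libraries, and 37.3 and 39.5 in the ZT12 libraries. The ZT12 ratios lay below all 4 earlier ones, and the ZT2 libraries differed most. The ratio of the sum to Alas1 was 27.4 and 32.3 in the ZT0 libraries, 44.1 and 69.7 in the ZT2 libraries, and 18.8 and 14.1 in the ZT12 libraries, with no overlap between times. Cyp2a5 made up 2.91% ± 0.51 of the P450 sum at ZT0, 2.51% ± 0.70 at ZT2 and 9.63% ± 0.43 at ZT12 (SD, n = 2 each). Without Cyp2a5 the sum of the other 6 P450s was 13374 RPKM ± 1692 at ZT0, 12663 RPKM ± 3113 at ZT2 and 14859 RPKM ± 1792 at ZT12 (SD, n = 2 each). The sums and ratios were chosen after the single genes were known, and no test was made of them.

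**Figure D4:**
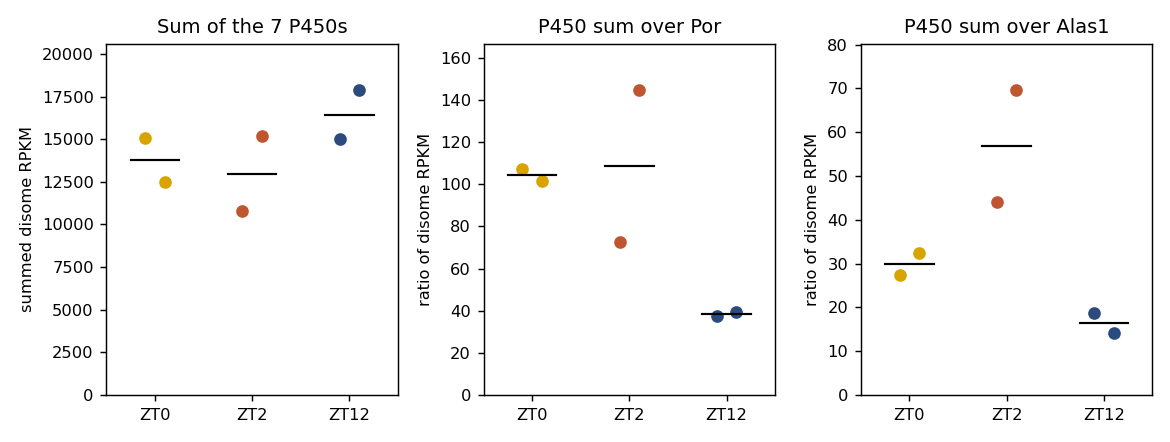
From left to right, the panels show the summed disome RPKM of the 7 P450s, that sum over Por, and that sum over Alas1, at ZT0, ZT2 and ZT12, with a point per library and a bar at the mean. The ratio to Por is 37.3 and 39.5 in the ZT12 libraries and at least 72.5 in the other 4.

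The courses of the 9 genes over the 6 libraries are described here by Pearson's r of log2(RPKM + 1), and no grouping of them was tested. Of all pairs among the 9, Cyp2a5 and Por were most alike, with r = 0.978. Of the other 8354 tested genes, 15 were closer to Cyp2a5 than Por was. Cyp2a5, Por and Alas1 were called higher for ZT12 against ZT2 in these same libraries, so their likeness is not separate from those calls. Alas1 was most like Cyp2a5, at r = 0.933, and 1.29% of genes were closer to it. Among the 9 genes, Cyp2f2 and Cyp2c70 were most like each other, at r = 0.829, and 5.77% and 4.6% of genes were closer to them. Cyp2c70 ran opposite to Por, at r = -0.942, and the share of all genes with a lower r was not computed. The highest r of Cyp3a11 was 0.554 with Cyp2c29, and 12.0% of genes were closer to it. The shares closer than the most alike member were similar for Cyp1a2 (11.2%), Cyp2e1 (9.58%) and Cyp2c29 (9.17%).

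The recovered lengths of the gene models were whole multiples of 3 for 8 of the 9 genes, with 493 codons for Cyp2e1, 494 for Cyp2a5, 642 for Alas1 and 678 for Por. The exception was Cyp2c29, whose model spans 1540 nucleotides. Over all listed genes, 95.16% of the recovered lengths were multiples of 3. Lengths in multiples of 3 are those of coding sequences, and whether the models hold untranslated bases is not given in the labels.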

How the data were processed

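Disome footprints of 6 mouse liver libraries, 2 at each of 3 times, were read from 1 table per library, with no header. The authors deposited RPKM values for 8941 genes in each. Tools named in the submitters' processing notes are Bowtie2 2.3.0, CASAVA 1.82, STAR, cutadapt, edgeR and StringTie, with builds GRCm38.p2 and mm10. The sources used here do not say what each did, which annotation was used, or how genes were filtered and shared reads handled. Libraries were grouped by the time in their titles.

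Whole reads were recovered from the steps of the RPKM values (100.0% of genes within 1e-06 of whole numbers, 74 of them through their length). Differences between times were tested with limma 3.58.1 (R 4.3.3) on log2(RPKM + 1), over all 8355 genes averaging 1 RPKM or more. The model had a mean per time, a variance trend and 3 residual degrees of freedom, with Benjamini-Hochberg adjustment over all of these genes. The labels say that lysates of 2 mice were pooled per time, and not whether a time's libraries came from separate pools, so p-values may measure technical spread only. Recovery and fit were tested on simulated data. Members and lists were chosen with earlier results of these data known. The rule named all 10 members, and other pathway genes and cell type markers only where a symbol could be paired with an identifier. The RefSeq table carries no Ensembl identifiers (0 of 49997 genes), so those lists were not analysed here.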

Additional observations from a re-analysis of the deposited data

How the results depend on the processing

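Each choice was changed in turn, and the number of the 9 genes called was 0 for ZT2 and 2 for ZT12 when each was set against ZT0, 3 for ZT12 against ZT2 and 3 for the F test, as reported. Both pseudocounts, both filters and both other scalings kept these counts. Dropping the variance trend gave 0 genes for ZT12 against ZT0 and 0 for the F test, and voom on recovered reads gave 4 for ZT12 set against ZT0, 4 for ZT12 set against ZT2 and 4 for the F test. An adjusted p of 0.1 gave 4 for ZT12 against ZT2 and left the other counts as they were. Leaving out single libraries gave 0 in every case for ZT2 against ZT0 and 0 to 2 genes for ZT12 against ZT0. It gave 0 to 4 genes for ZT12 against ZT2 and 0 to 4 for the F test. In those fits the lone library of a time is taken to vary as the remaining groups do. Same-numbered libraries did not deviate together over the tested genes (correlations of -0.076, -0.019 and 0.018). These values cannot show whether such libraries shared a preparation that left no common deviation. A replicate block left 0, 2, 3 and 2 of the 9 genes called.

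Over all tested genes, the 4 counts of calls were 2, 79, 172 and 105 as reported, 1, 32, 80 and 34 without the variance trend, 9, 283, 356 and 350 with voom, and 2, 51, 113 and 76 with the block. Leaving out single libraries moved them far more, to 0 to 248 (ZT2 against ZT0, with 248 only without ZT2 replicate 1), 3 to 283 (ZT12 against ZT0), 5 to 597 (ZT12 against ZT2) and 5 to 612 (F test). A fit to only the 4 libraries compared called 1, 282 and 39 genes in the 3 comparisons. A filter at 5 RPKM called 124 for ZT12 against ZT0 and 3 for ZT2 against ZT0, where a pseudocount of 0.1 called 6. At an adjusted p of 0.1 the 4 counts were 8, 179, 423 and 305. A common sum of RPKM shifted the median gene to -0.11 (ZT2 against ZT0) and 0.17 (ZT12 against ZT2), and split the calls for ZT12 against ZT2 into 132 higher and 61 lower, beside 89 and 83 as reported. It ended no call among the 9 genes.

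Of 459 values of single genes, 426 kept direction and side of the threshold, 14 lost the call, 6 gained it and 13 changed sign, none of the last called. For Cyp3a11, ZT12 against ZT2, the log2 change turned to 0.02 under quantile normalization and 0.076 under a common sum. With single libraries left out, log2 changes for ZT2 against ZT0 ran between -0.855 and 0.216 for Cyp2e1, between -0.004 and 0.342 for Cyp3a11, between -0.493 and 0.013 for Cyp2c29 and between -0.322 and 0.181 for Por. For ZT12 against ZT0, Cyp3a11 ran between -0.073 and 0.237. For ZT12 against ZT2, Cyp3a11 ran between -0.259 and 0.086, and Cyp2c29 between -0.217 and 0.288. Each of the 9 genes had at least 1641 recovered reads in each library, and counting error was not set against the spread between libraries.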

Other observations

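Replicates of the 9 genes spread by 0.23 on the log2 scale for ZT0, 0.32 for ZT2 and 0.23 for ZT12 (root mean square SD of the 2 libraries), against 0.25, 0.53 and 0.35 over all tested genes. The median SD over all tested genes was lower, at 0.135 for ZT0, 0.285 for ZT2 and 0.194 for ZT12. These values therefore do not show that the 9 genes replicated better than most genes. The gene with the widest pair of replicates was Cyp2e1, whose ZT2 libraries were 2.10-fold apart in RPKM. Alas1 was next, with ZT12 libraries 1.59-fold apart. Replicates of Cyp2f2 were 1.06-fold to 1.07-fold apart at every time. The level of Alas1 relative to Por averaged 3.54 ± 0.54 for ZT0, 1.86 ± 0.31 for ZT2 and 2.39 ± 0.58 for ZT12 (SD, n = 2 each), with no test.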
